A study of Homo sapiens with 12 samples.

Results

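The mRNAs of 10 glycolytic enzymes were followed in U2OS cells, a human osteosarcoma line, with and without triptolide, an inhibitor of transcription. GAPDH, ENO1, PKM, LDHA, ALDOA, PGK1, TPI1, PGAM1, HK2 and PFKP were listed by name as abundant metabolic transcripts that could serve as a stable reference, and the rule itself used no measured value. All 10 were found among the 22379 genes of the table. A transiently transfected plasmid supplied Cas9 and a guide that was nontargeting (NONT, labelled WT), directed at NUP93 (NUP93-KO) or directed at EXOSC5 (EXOSC5-KO), and puromycin selected the transfected cells. The knockout cells were pools rather than clones. Each of the 3 genotypes was given DMSO (untreated) or 1 μM triptolide, which leads to loss of RNA polymerase II, for 8 h. The 6 groups held 2 replicates each, 12 libraries of polyadenylated RNA in all. ERCC spike-in RNAs were added in proportion to the number of cells counted.

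Glycolysis splits glucose into pyruvate in the cytosol and yields ATP without oxygen. Hexokinase and phosphofructokinase catalyse early steps, and aldolase and triose phosphate isomerase make the triose that enters the payoff phase. Pyruvate is either passed to mitochondria or reduced to lactate by lactate dehydrogenase. Many tumor lines run the pathway fast even when oxygen is present. NUP93 is a scaffold protein of the nuclear pore, and EXOSC5 is a subunit of the RNA exosome, which degrades RNA from the 3′ end.

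The ERCC spike-ins summed to between 40022 and 42811 normalized units in every library. Depth, estimated roughly from the step between low values, was 8560000 to 11900000 reads. NUP93 stood at 1753 and 2489 in the untreated NONT libraries and at 1395 and 1432 in untreated NUP93-KO cells, a difference of -0.56 in log2 that did not pass the test across all genes (adjusted p = 0.926). EXOSC5 stood at 299 and 481 in untreated NONT and at 216 and 148 in untreated EXOSC5-KO cells, a difference of -1.08 (adjusted p = 0.151). As shares of all mRNA both differences passed (limma adjusted p = 0.0459 and 0.00673). The NUP93 share was -0.45 in NUP93-KO and also -0.31 in untreated EXOSC5-KO cells, which did not pass (adjusted p = 0.0703). The EXOSC5 share was 0.10 in untreated NUP93-KO cells (adjusted p = 0.919). Of the osteoblast markers, COL1A1 and SPARC were abundant, while SP7 and IBSP were at 0 in every library, and markers of blood (at most 4.70 in sum), epithelium (33.9 to 117) and endothelium (3.22 to 78.0) were low. The NONT untreated libraries stood apart from each other, since replicate 1 was lower than replicate 2 by a median of 0.51 in log2 over all genes and the members followed (0.48 to 0.64 lower). This was the widest replicate gap of the 6 groups.

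In untreated cells the 10 mRNAs spanned a wide range of levels. Per kilobase of transcript, over the 6 untreated libraries, GAPDH averaged 55677, ENO1 34595 and PKM 29502 normalized units. TPI1 (10436), ALDOA (9380), PGAM1 (5690), LDHA (5622) and PGK1 (2332) formed the middle, and PFKP (441) and HK2 (141) were the least abundant. Neighbours in this order overlapped over the untreated libraries in 4 pairs, namely GAPDH with ENO1, ENO1 with PKM, TPI1 with ALDOA, and PGAM1 with LDHA. Compared within libraries, GAPDH exceeded ENO1 in 12 of 12, whereas PGAM1 exceeded LDHA in only 3 of the 6 untreated libraries. The LDHA level is uncertain, because a further gene identifier had exactly the same value as LDHA in every library, and reads of identical sequences are divided between their identifiers. Reads of GAPDH, PGK1 and other members with near-identical processed pseudogenes may likewise be shared with those copies.

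**Figure D1:**
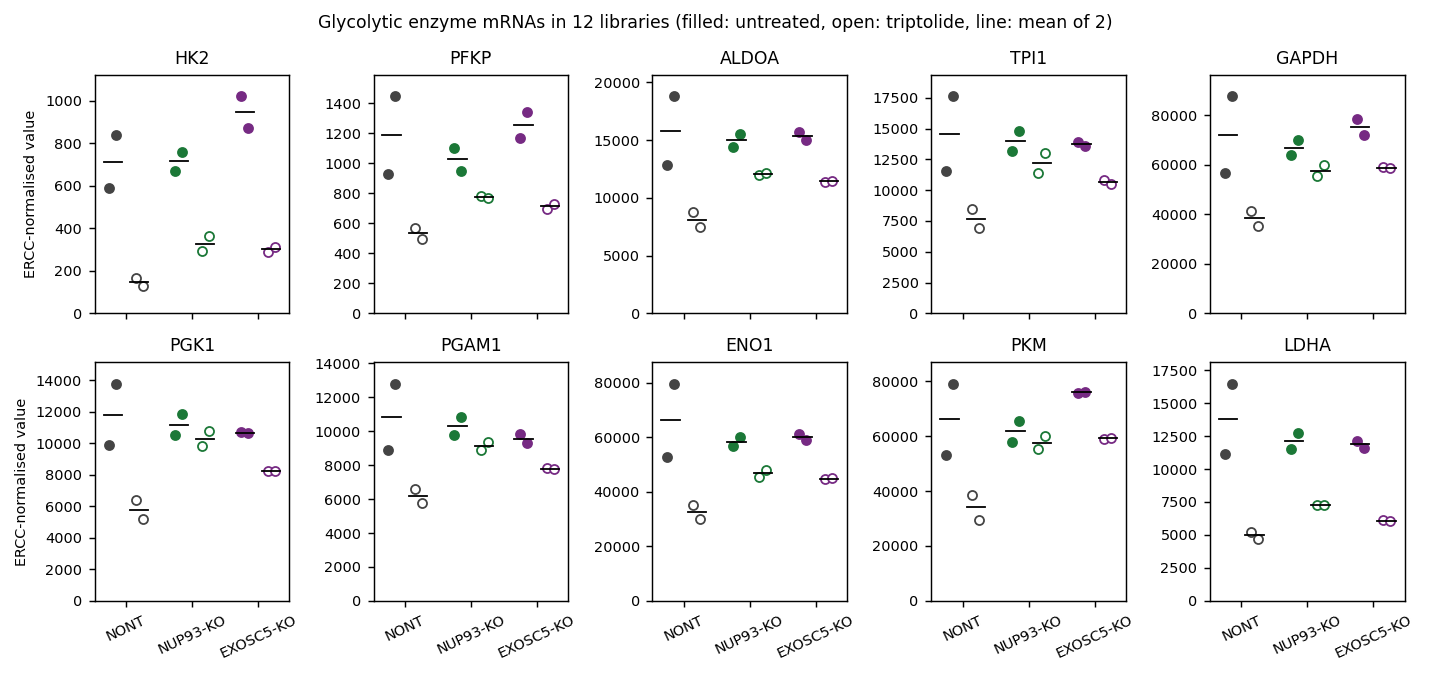
ERCC-normalised values (linear axis from 0, its own range in each panel) of the 10 mRNAs in each library, by genotype, with filled points for untreated cells, open points for triptolide and a line at the mean of 2. On this spike-in scale the open points lie below the filled points for every gene in NONT and EXOSC5-KO cells, and in NUP93-KO cells the points of PKM and PGK1 overlap. Of all genes tested, 90% (NONT), 55.1% (NUP93-KO) and 64.3% (EXOSC5-KO) were called lower in limma, which is a different measure from separation of the points. The share of all genes with separate points was not counted, so this separation is not read as particular to the members.

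Triptolide lowered all 10 mRNAs in NONT cells on the spike-in scale, which measures RNA per counted cell, whereas 7 of them rose as shares of all mRNA. Their median log2 fold change was -0.97 against -1.62 over all 13811 genes tested, so most members lost less RNA than the typical gene. HK2 lost the most (a level 0.209 times that of untreated cells) and PGAM1 the least (0.576 times). Of all genes tested, 90% were lower in NONT cells at an adjusted p below 0.05 in limma, so the count of 10 in 10 is close to the background. In NUP93-KO cells 2 of 10 members were lower (LDHA and HK2) where 55.1% of all genes were, and in EXOSC5-KO cells 3 of 10 (LDHA, HK2 and PFKP) where 64.3% were. None was higher, where 0.0507% (NONT), 0.138% (NUP93-KO) and 0.0796% (EXOSC5-KO) of all genes were. These values are averages over the counted cells, so a loss in every cell and a larger loss in part of the cells cannot be told apart.

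Among the enzymes of the early steps, HK2, the inducible hexokinase that phosphorylates glucose, showed the steepest loss. It measured 589 and 839 in the untreated NONT libraries and 167 and 127 under triptolide. In NUP93-KO cells it measured 672 and 759 untreated and 293 and 363 under triptolide. Untreated EXOSC5-KO cells had 1022 and 870.0 and treated ones 290.3 and 311. The groups did not overlap in any genotype, and all 4 treated knockout libraries measured above both treated NONT libraries. The latter held for every member and is not particular to HK2. Over all genes the response also exceeded that of NONT by a median of 0.74 (NUP93-KO) and 0.57 (EXOSC5-KO) in log2. The HK2 log2 fold changes on the spike-in scale were -2.26 for NONT (SE 0.234, adjusted p = 2.02e-07), -1.13 for NUP93-KO (SE 0.234, adjusted p = 0.000578) and -1.65 for EXOSC5-KO cells (SE 0.234, adjusted p = 1.29e-05). HK2 was the only member whose NONT change was below the median of all genes, at percentile 32.4.

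PFKP, the platelet-type phosphofructokinase, was the next least abundant member. It measured 932 and 1448 in the untreated NONT libraries and 568 and 498 under triptolide. Its values were 1101 and 952 in untreated NUP93-KO cells and 782 and 769 under triptolide, and 1170.2 and 1346 in untreated EXOSC5-KO cells and 698 and 732 under triptolide. The lower untreated NONT library still lay above both treated ones, as did the untreated libraries of both knockouts over their treated partners. The change was -1.13 in NONT (adjusted p = 0.000134) and -0.81 in EXOSC5-KO cells (adjusted p = 0.00336), and at -0.40 in NUP93-KO cells it did not pass (adjusted p = 0.124).

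ALDOA, the aldolase that cleaves fructose 1,6-bisphosphate, measured 12831 and 18787 in the untreated NONT libraries and 8793 and 7448 under triptolide. NUP93-KO cells had 14434 and 15502 untreated and 12002 and 12184 treated. EXOSC5-KO cells had 15700.2 and 15041 untreated and 11411 and 11431 treated. Treated values were thus lower without overlap in all 3 genotypes, with log2 fold changes of -0.94, -0.31 and -0.43, of which only the first passed the test. TPI1, which interconverts the 2 triose phosphates, measured 11552 and 17618 in the untreated NONT libraries and 8441 and 6895 under triptolide. The NUP93-KO values for TPI1 were 13166 and 14802 untreated and 11413 and 12981 treated, only narrowly apart. In EXOSC5-KO cells TPI1 measured 13866 and 13591 untreated and 10856 and 10504 treated. Its change passed in NONT (-0.90) and not in NUP93-KO (-0.20) or EXOSC5-KO cells (-0.36).

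GAPDH, which oxidizes glyceraldehyde 3-phosphate and is widely used as a loading control, opened the payoff phase. It measured 56698 and 87717 in the untreated NONT libraries and 41469 and 35216 under triptolide. In NUP93-KO cells GAPDH measured 64052 and 69964 untreated and 55448 and 59774 treated, while EXOSC5-KO cells had 78588 and 72251 untreated and 59128 and 58564 treated. No treated library reached an untreated one of its own genotype. The log2 fold change was -0.88 in NONT (95% interval -1.39 to -0.37, adjusted p = 0.00269). Neither the NUP93-KO change of -0.22 (95% interval -0.73 to 0.29) nor the EXOSC5-KO change of -0.36 (95% interval -0.87 to 0.15) passed.

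PGK1, the first enzyme of the pathway that makes ATP, measured 9858 and 13783 in the untreated NONT libraries and 6415 and 5164 under triptolide. In NUP93-KO cells PGK1 measured 10518 and 11855 untreated and 9825 and 10778 under triptolide, so the groups overlapped there. EXOSC5-KO cells had 10686 and 10629 untreated and 8257 and 8267 treated. PGAM1, a phosphoglycerate mutase, fell least in NONT, from 8911 and 12811 to 6593 and 5745. It measured 9808 and 10841 in untreated NUP93-KO cells and 8926 and 9367 under triptolide, and 9859 and 9289.6 in untreated EXOSC5-KO cells and 7808 and 7797 under triptolide. In NONT cells the log2 fold changes were -1.02 for PGK1 and -0.80 for PGAM1, and neither gene passed in the knockouts, where PGK1 had values of -0.12 (NUP93-KO) and -0.37 (EXOSC5-KO) and PGAM1 of -0.17 (NUP93-KO) and -0.29 (EXOSC5-KO).

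ENO1, the enolase that makes phosphoenolpyruvate, measured 52707 and 79734 in the untreated NONT libraries and 35328 and 30109 under triptolide. The ENO1 values were 56734 and 60000.4 in untreated NUP93-KO cells and 45603 and 47993 under triptolide, and 61386 and 59122 in untreated EXOSC5-KO cells and 44615 and 45069 under triptolide. PKM, the pyruvate kinase of most tissues and tumors, measured 53094 and 79179 in the untreated NONT libraries and 38499 and 29600.0 under triptolide. In NUP93-KO cells PKM measured 58015 and 65568 untreated and 55365 and 60046 treated, so that 1 treated library lay above 1 untreated library. EXOSC5-KO cells had the highest pair of untreated PKM values apart from 1 NONT library, 75889 and 76262, and 59023 and 59546 under triptolide. The NONT changes of -0.99 for ENO1 and -0.94 for PKM passed, and those in NUP93-KO (-0.32 and -0.10) and EXOSC5-KO cells (-0.43 and -0.36) did not.

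LDHA, the dehydrogenase subunit that favours conversion of pyruvate to lactate, was, with HK2, a member whose fall passed the test in every genotype on the spike-in scale, although with median-of-ratios factors it lay above 0. It measured 11147 and 16479 in the untreated NONT libraries and 5198 and 4727 under triptolide. In NUP93-KO cells LDHA measured 11524 and 12699 untreated and 7254 and 7299 treated. EXOSC5-KO cells had 12146 and 11603 untreated and 6107 and 6056 treated. The groups were well separated in each genotype. The log2 fold changes were -1.45 for NONT (SE 0.197, adjusted p = 4.50e-06), -0.73 for NUP93-KO (SE 0.197, adjusted p = 0.00449) and -0.96 for EXOSC5-KO cells (SE 0.197, adjusted p = 0.000450). Without replicate 2 of untreated NUP93-KO cells, the NUP93-KO value was -0.66 and no longer passed (adjusted p = 0.0525).

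**Figure D2:**
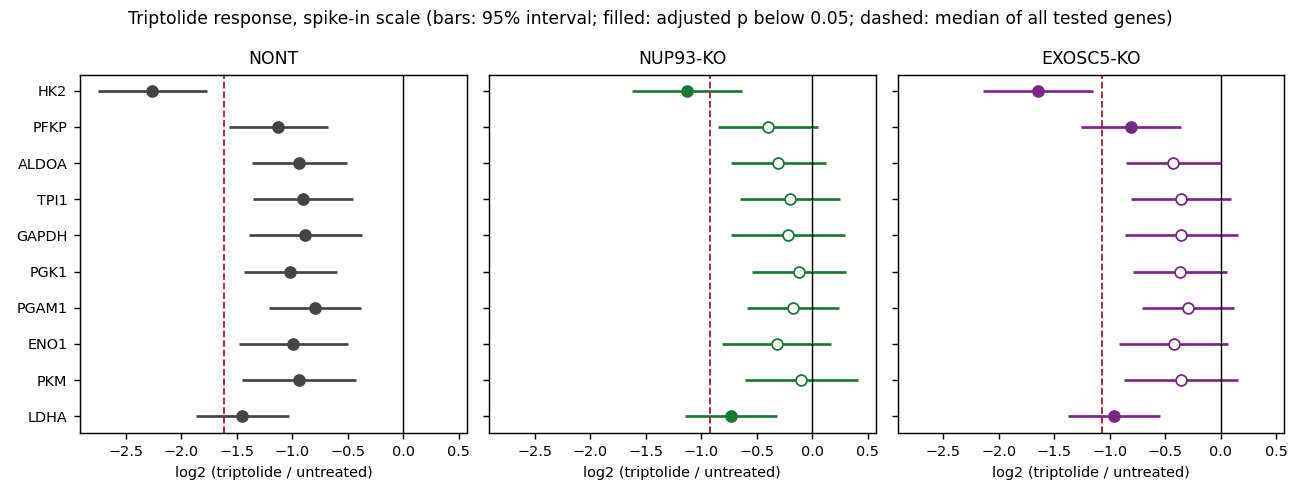
Log2 fold change to triptolide on the spike-in scale for each member, by genotype, with 95% intervals, filled points where the limma adjusted p was below 0.05 and a dashed line at the median of all genes tested (-1.62, -0.92 and -1.08). Every point lies below 0 on this scale (most lie above 0 as shares), and all but HK2 in each genotype lie to the right of the dashed line.

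Placed among all genes tested, the members' changes in NONT cells lay mostly above the middle. PGAM1 stood at percentile 90.3, GAPDH at 86.3, TPI1 at 85.1, ALDOA at 83.1, PKM at 83.03, ENO1 at 80.0 and PGK1 at 78.4, where higher percentiles mean a smaller loss. PFKP (72.4) and LDHA (56.5) were nearer the middle. Those 7 first-named enzymes lost between 42.4% and 50.6% of their untreated level per cell.

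Expressed as shares of the summed mRNA, the same enzymes rose. GAPDH, ENO1, PKM, ALDOA, PGK1, TPI1 and PGAM1 were higher under triptolide in all 3 genotypes, with log2 changes of 0.32 to 0.54 in NONT cells. On this scale each library is divided by its own total, so a gene that lost less RNA than the library as a whole gains share. In NONT cells 7 of 10 members were higher, where 15.4% of all genes were, and 1 of 10 was lower (HK2), where 38.4% were. The counts were 7 higher and 2 lower (LDHA and HK2) in NUP93-KO cells, against 14.1% and 40% of all genes, and 7 higher and 2 lower (LDHA and HK2) in EXOSC5-KO cells, against 15% and 37.8%. Together the 10 mRNAs made up 1.96% ± 0.0483 (SD, n = 2) of the summed mRNA signal in untreated and 2.56% ± 0.00824 in treated NONT cells. This signal was not corrected for transcript length, and the further identifier with the values of LDHA was not counted among the members. In NUP93-KO cells the sum was 1.99% ± 0.0104 untreated and 2.52% ± 0.00279 treated. In EXOSC5-KO cells it was 1.98% ± 0.0477 untreated and 2.60% ± 0.00475 treated (SD, n = 2 each).

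PGAM1 gained the most share in NONT cells. Per 1000000 of summed mRNA it stood at 787 and 779 in untreated and at 1111 and 1173 in treated NONT libraries, a log2 change of 0.54 (SE 0.0392, adjusted p = 9.31e-07). Its changes in the knockouts were 0.39 and 0.50. On the same scale GAPDH stood at 5008 and 5334 in untreated and at 6985 and 7189.9 in treated NONT cells. Its NUP93-KO shares were 5336 and 5281 untreated and 6742 and 6799 treated, and EXOSC5-KO cells had 5456 and 5388 untreated and 7385 and 7293 treated. The GAPDH replicates of a group differed far less on this scale than the treated groups differed from the untreated ones, and the log2 changes of 0.46, 0.35 and 0.44 all passed (highest adjusted p = 8.56e-06). PKM gained 0.40, 0.47 and 0.43 in log2 share, the largest gain of any member in NUP93-KO cells.

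HK2 lost share in every genotype. It stood at 52.0 and 51.0 per 1000000 in untreated and 28.2 and 26.0 in treated NONT libraries, a log2 change of -0.90 (SE 0.106, adjusted p = 3.40e-05). NUP93-KO cells lost less (-0.55, adjusted p = 0.00123) than EXOSC5-KO cells (-0.84, adjusted p = 6.78e-05), a contrast between the knockouts that was not tested. LDHA kept most of its share, at 985 and 1002 per 1000000 untreated and 875 and 965 treated in NONT cells (-0.11, adjusted p = 0.0887, not passed). The LDHA changes of -0.16 (NUP93-KO, adjusted p = 0.0187) and -0.17 (EXOSC5-KO, adjusted p = 0.0158) passed but were lost without the variance trend (adjusted p = 0.150 and 0.138) and when single libraries were left out. That held for replicates 1 and 2 of untreated and replicate 2 of treated NUP93-KO cells (adjusted p = 0.0611 to 0.142), and for replicate 2 of untreated and both replicates of treated EXOSC5-KO cells (adjusted p = 0.0545 to 0.0866). In NONT cells the LDHA share passed without treated replicate 2 (-0.18, adjusted p = 0.0120). PFKP passed in no genotype, at 0.21, 0.17 and -0.02, and its untreated and treated shares overlapped in both knockouts.

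**Figure D3:**
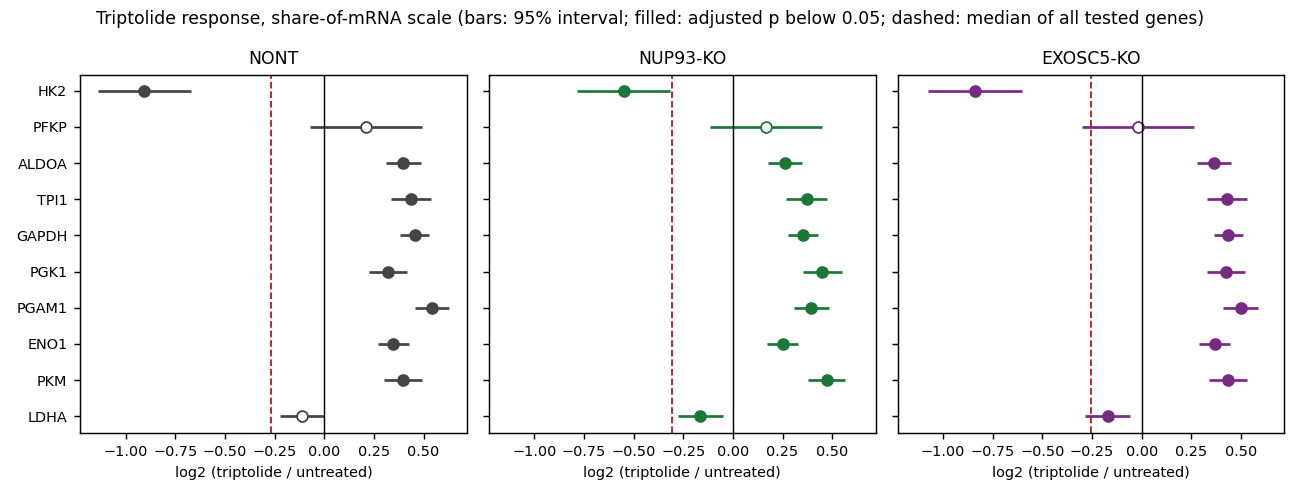
Log2 change in share of summed mRNA to triptolide for each member, by genotype, with 95% intervals, filled points where the limma adjusted p was below 0.05 and a dashed line at the median of all genes tested (-0.27, -0.31 and -0.26). ALDOA, TPI1, GAPDH, PGK1, PGAM1, ENO1 and PKM lie above 0 in each genotype, and HK2 lies below the dashed line in each.

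Ratios within a library do not depend on any scale factor, so GAPDH, the common reference, was used as the denominator for the others. The log2 ratio of HK2 to GAPDH was -6.59 and -6.71 in untreated and -7.95 and -8.11 in treated NONT libraries. The NUP93-KO ratios were -6.58 and -6.53 untreated against -7.56 and -7.37 treated. EXOSC5-KO cells had -6.27 and -6.38 untreated against -7.67 and -7.56 treated. HK2 was thus lower against GAPDH in every treated library. LDHA was lower against GAPDH too, at -2.35 and -2.41 untreated and -3.00 and -2.90 treated in NONT cells. Its ratios were -2.47 and -2.46 untreated and -2.93 and -3.03 treated in NUP93-KO cells. In EXOSC5-KO cells they were -2.69 and -2.64 untreated and -3.28 and -3.27 treated. TPI1 kept the closest ratio to GAPDH, with mean changes of -0.02, 0.02 and -0.01 and overlapping values in all 3 genotypes. PGAM1 gained slightly on GAPDH (0.09, 0.04 and 0.06) with no overlap between treated and untreated libraries. In NUP93-KO cells they were only narrowly apart, with the nearest values at -2.69 untreated and -2.67 treated. These ratios are descriptions of unequal change between the mRNAs and were not tested.

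Which scale is chosen fixes the direction of most members. With DESeq2-type median-of-ratios factors over genes, 9 members were higher and HK2 alone was lower in NONT cells. NUP93-KO cells had 9 higher and none lower, and EXOSC5-KO cells had 7 higher and 1 lower. The medians over all genes were -0.02 (NONT), -0.04 (NUP93-KO) and -0.02 (EXOSC5-KO) with these factors. With the mitochondrially encoded mRNAs, which nuclear RNA polymerase II does not make, as the reference, all 10 were lower in all 3 genotypes. The typical gene was lower there too, with medians over all genes of -1.28 (NONT), -1.22 (NUP93-KO) and -1.17 (EXOSC5-KO). In NUP93-KO cells the summed mitochondrial mRNA rose under triptolide, from 74671 and 70097 to 91206 and 87262 normalized units. Such a rise lowers every gene on that scale. In NONT and EXOSC5-KO cells its treated and untreated values overlapped. On all 4 scales the members' median lay between 0.61 and 0.70 above the median of all genes. Each scale divides all genes of a library by 1 factor, so this distance could hardly differ between them. HK2 was below 0 on all 4 scales in all 3 genotypes, although its median-of-ratios change in NUP93-KO cells (-0.24) did not pass.

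**Figure D4:**
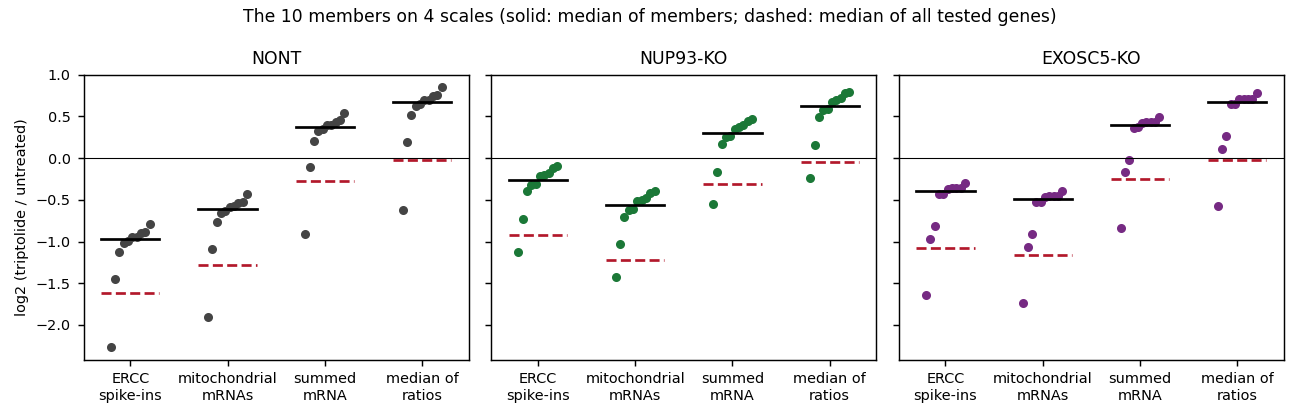
Log2 fold change to triptolide of the 10 members (points, sorted) under 4 choices of reference, by genotype, with a solid line at the members' median and a dashed line at the median of all genes tested. The members' median moves from below 0 on the spike-in and mitochondrial scales to above 0 with summed mRNA and median-of-ratios factors. Its distance from the dashed line (0.61 to 0.70) is nearly fixed, since each scale divides all genes of a library by 1 factor.

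Without triptolide, no member was called between a knockout and NONT cells on the spike-in scale. In untreated NUP93-KO against untreated NONT cells the members had log2 differences from -0.18 to 0.02 (limma adjusted p = 1 for each), where 0.00724% of all genes were lower and 0.0145% higher. The sign of these differences turned with 1 untreated NONT library. Without replicate 1 of untreated NONT all 10 members lay at -0.50 to -0.23, and without its replicate 2 all 10 lay at 0.12 to 0.28. In untreated EXOSC5-KO cells they had differences from -0.19 (LDHA) to 0.42 (HK2), where 0.0362% of all genes were lower and 0.485% higher. Their median of -0.04 became -0.32 without replicate 1 and 0.25 without replicate 2 of untreated NONT. With all libraries, 0 members had an unadjusted p below 0.05 in both comparisons. The HK2 value in EXOSC5-KO cells had a 95% interval of -0.07 to 0.92. As shares, no member differed in NUP93-KO cells (0.369% of all genes lower and 0.673% higher). In EXOSC5-KO cells LDHA (-0.22, adjusted p = 0.0360) and PGAM1 (-0.19, adjusted p = 0.0219) were lower and PKM was higher (0.20, adjusted p = 0.0211), where 2.27% of all genes were lower and 3.23% higher. The PKM share was 4690.1 and 4815 per 1000000 in untreated NONT and 5269 and 5688 in untreated EXOSC5-KO cells. These 3 calls were each lost when 1 of several libraries was left out, and without replicate 1 of untreated NONT, for example, none of the 3 passed.

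The responses of the knockouts were next compared with that of NONT cells as a difference of log2 fold changes. Both differences share the NONT libraries. In NUP93-KO cells the members' response exceeded that of NONT by a median of 0.71 (0.62 for PGAM1 to 1.13 for HK2) beside 0.74 over all genes, and in EXOSC5-KO cells by 0.53 (0.32 for PFKP to 0.65 for PGK1) beside 0.57. No member passed in either, where 0.76% and 0.319% of all genes were higher and 0.0145% lower in each. The HK2 difference in NUP93-KO cells had an SE of 0.330 and an adjusted p of 0.0612, the lowest of the members. An unadjusted p below 0.05 was found for 8 members in NUP93-KO and 1 in EXOSC5-KO cells. No share of all genes at that level stands beside these counts. They are no result about the members, whose medians were slightly below those of all genes. Without replicate 1 of untreated NONT, the lower of that pair, the members' medians were 1.005 (NUP93-KO) and 0.84 (EXOSC5-KO). Without replicate 2 of untreated NONT they were 0.40 (NUP93-KO) and 0.24 (EXOSC5-KO, with a lowest member at -0.0026). In each such fit the single library left was assumed to vary like the other groups. Over all genes, replicate 1 minus replicate 2 had a median of -0.51 in log2, so these shifts are not particular to the members. Whether members passed in both differences turned with the untreated NONT library left out, and in NUP93-KO cells also with replicate 1 of treated NONT. As shares no member passed in either, and over all genes 0% were called in the NUP93-KO difference by limma (603 genes were lower and 676 higher at an unadjusted p below 0.05), with 0.0217% lower and 0.0796% higher in the EXOSC5-KO difference. The members' median differences in share were -0.06 (NUP93-KO) and -0.01 (EXOSC5-KO).

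The remaining isozymes of the same steps had medians near those of the 10 members. Of 21 listed, 10 had an untreated mean of at least 10 and were tested, and 8 (NONT), 1 (NUP93-KO) and 2 (EXOSC5-KO) were lower on the spike-in scale (medians -0.87, -0.29 and -0.38), where 90%, 55.1% and 64.3% of all genes were. As shares 6, 5 and 5 of them were higher, where 15.4%, 14.1% and 15% of all genes were. ENO2, the neuronal enolase, was the gene of that list with the smallest loss in NONT. Its values were 507 and 812 in untreated and 631 and 555 in treated NONT libraries, which overlapped, and its log2 change of -0.12 did not pass (adjusted p = 0.613). Its share rose in each genotype, by 1.21 (NONT), 0.50 (NUP93-KO) and 0.66 (EXOSC5-KO). HKDC1, a hexokinase-like enzyme, lay at the other end, at 103 and 117 untreated and 51.5 and 26.0 treated in NONT cells (-1.56). HK1, the constitutive hexokinase, had share changes of 0.13, 0.06 and 0.06, none of which passed. HK1 is named here after its values were seen.

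Transporters and regulators of flux had lower medians than the enzymes. The regulators' spike-in medians were -1.64 (NONT), -1.11 (NUP93-KO) and -1.45 (EXOSC5-KO), beside -1.62, -0.92 and -1.08 over all genes. In NONT cells the regulators were thus near the typical gene. All 6 tested glucose and lactate transporters (of 7) were lower in NONT and NUP93-KO cells, and 4 were lower in EXOSC5-KO cells (medians -1.79, -1.56 and -1.38), where 90%, 55.1% and 64.3% of all genes were lower, so the counts in NONT and EXOSC5-KO cells are close to the background. As shares 3, 5 and 4 of them were lower, where 38.4%, 40% and 37.8% of all genes were, and none was higher. SLC2A1, the main glucose importer of many tumor lines, measured 2030.0 and 2972 in untreated and 558 and 629 in treated NONT libraries, a log2 change of -2.05 (adjusted p = 1.00e-06). SLC16A7, a monocarboxylate transporter, had the smallest loss among the genes of that list with an untreated mean of at least 100, at -1.38. Of 14 tested regulators (of 17), 11, 10 and 12 were lower on the spike-in scale, and 6, 7 and 8 lost share while 3, 1 and 1 gained it, beside the same shares of all genes lower and 15.4%, 14.1% and 15% higher in share. TXNIP, an inhibitor of glucose uptake, was the steepest of all, at 108 and 130.2 untreated and 3.82 and 3.05 treated in NONT cells (-4.76). PDK1, a kinase that shuts off pyruvate dehydrogenase, measured 141 and 116 untreated and 107 and 66.5 treated and did not pass (-0.60, adjusted p = 0.0766).

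Enzymes of neighbouring pathways were lower in NONT cells, as were 90% of all genes, and part of them gained share. All 7 pentose phosphate enzymes were lower in NONT and 2 in each knockout (medians -0.93, -0.32 and -0.37), between RPIA (-0.55 in NONT), which isomerizes ribose 5-phosphate, and RPE (-1.55), the ribulose phosphate epimerase. All 20 pyruvate dehydrogenase and citric acid cycle enzymes were lower in NONT cells, with 6 in NUP93-KO and 10 in EXOSC5-KO cells (medians -1.003, -0.30 and -0.50). Among them SDHC, a succinate dehydrogenase subunit, lost the least (-0.73) and DLAT, the acetyltransferase of pyruvate dehydrogenase, the most (-1.68). Shares rose for 5, 3 and 4 of the pentose phosphate enzymes and for 12, 10 and 11 of the citric acid cycle list, where 15.4%, 14.1% and 15% of all genes gained share. In the knockouts 55.1% (NUP93-KO) and 64.3% (EXOSC5-KO) of all genes were lower on the spike-in scale.

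Genes often used as references spanned a wider range than the glycolytic enzymes. Of 14 such genes outside the members, all were lower in NONT cells on the spike-in scale, with 4 in NUP93-KO and 9 in EXOSC5-KO cells (medians -1.06, -0.22 and -0.57), beside 90%, 55.1% and 64.3% of all genes. As shares 9, 8 and 8 were higher (15.4%, 14.1% and 15% of all genes) and 4, 4 and 3 lower (38.4%, 40% and 37.8%). HPRT1, a purine salvage enzyme, lost the least in NONT, from 445 and 632 to 345 and 291 (-0.74). TBP, the TATA-binding protein, lost the most, from 158 and 294 to 11.3 and 10.4 (-4.19), and in EXOSC5-KO cells it measured 189 and 174 untreated and 24.6 and 40.0 treated (-2.49). The spread of share changes in NONT ran from -2.48 to 0.59 over these genes and from -0.90 to 0.54 over the members.

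**Figure D5:**
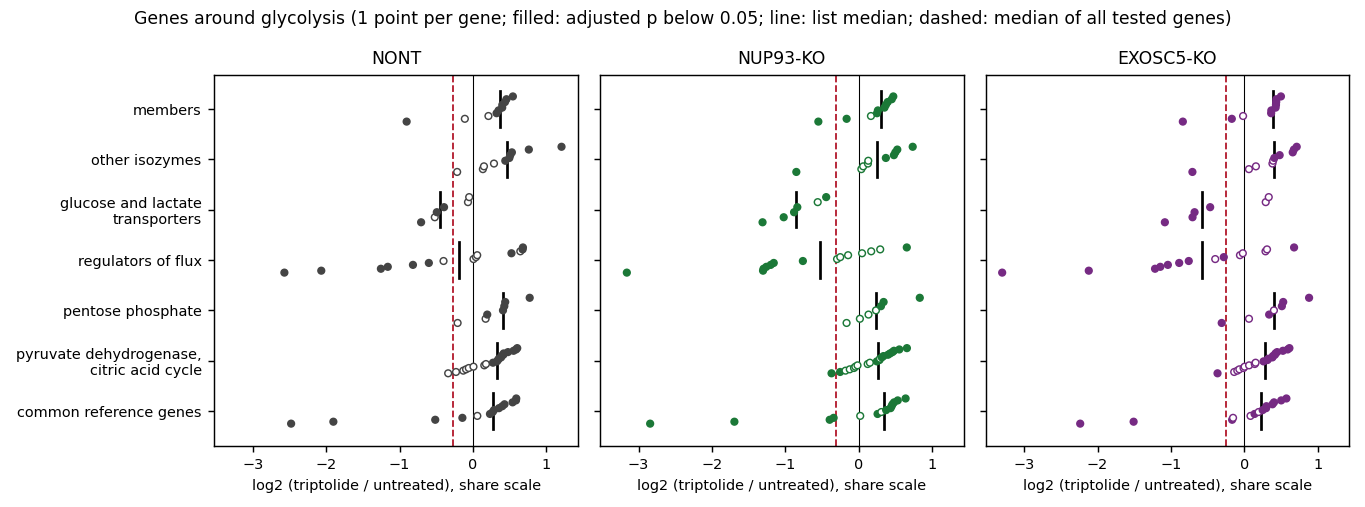
Log2 change in share of summed mRNA to triptolide for each tested gene of 7 lists around glycolysis, by genotype, with filled points where the limma adjusted p was below 0.05, a line at each list's median and a dashed line at the median of all genes tested. Medians of the enzyme lists lie above 0, and those of the transporters (-0.44, -0.86 and -0.57) and regulators (-0.20, -0.53 and -0.58) lie below 0. The dashed line is at -0.27, -0.31 and -0.26, so the regulators' median in NONT cells lies above it.

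The share profile of the members over the 12 libraries was then set against 10371 other genes with an untreated mean of at least 100. By root-mean-square distance of centred log2 shares from the members' mean profile, the nearest were SRP72, a subunit of the signal recognition particle (0.0461), CCDC22 (0.0473), TIMM50, a subunit of the mitochondrial import machinery (0.0479), DDB1, an adaptor of CUL4 ubiquitin ligases (0.0483), and PSMD13, a proteasome subunit (0.0490). The median distance over all compared genes was 0.368. The members themselves lay at 0.0802 (ALDOA) to 0.202 (LDHA), except HK2 at 0.526, which was farther from the members' mean than the typical gene. These distances describe likeness over 12 libraries that share one normalization, and SRP72 gained 0.28 in log2 share in NONT cells.

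The members' transcripts were shorter at the median than those of other genes, with HK2 (5626 bases) and PGK1 (4812 bases) above the median of all. Their median transcript length (MANE Select, GENCODE release 44) was 2022 bases against 3466 over the tested genes with an annotated transcript, and their median 3′UTR was 593 bases against 1379. AUUUA elements, the core of AU-rich instability sequences, were searched on the sense strand of the 3′UTR as ATTTA. GAPDH, ENO1, PKM, TPI1 and PFKP had none, 5 of 10 members, against 25.7% of tested genes. LDHA, ALDOA and PGAM1 had 1 each, HK2 had 5 in a 3′UTR of 2418 bases, and PGK1 had 6 in one of 3465 bases. Over all tested genes, the median spike-in change in NONT was -1.38 for the 3327 genes without the element, -1.60 for the 3350 genes with 1 or 2, and -1.82 and -1.77 for the 2448 and 3809 genes with progressively more. PGK1, with the most elements, stood at percentile 78.4 of the NONT response. Median GC content was 54.2% in the members and 48.1% in the tested genes, with LDHA (41.8%) and PGK1 (42.8%) below the latter. GAPDH lies at chr12:6534512-6538374, LDHA at chr11:18394560-18408425 and HK2 at chr2:74834127-74893359, all on the plus strand of GRCh38.

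Promoters of the 2 members whose fall passed in every genotype on the spike-in scale, and of ENO1, an abundant member that gained share, are shown for comparison, each from 250 bases before to 50 bases after a RefSeq start (GRCh38.p14, 5′ to 3′ on the strand of the gene). All 10 members had a window, the first listed for each gene being used. For 6 of them (ENO1, PKM, LDHA, PGK1, TPI1 and HK2) it was set at the start of the MANE Select transcript. The windows of the other 4 were set at other RefSeq starts, 747 bases (GAPDH), 1627 bases (PGAM1) and 422 bases (PFKP) downstream of that start and 1481 bases (ALDOA) upstream of it. Capitals mark ACGTG and GCGTG on either strand (CACGT and CACGC on the other), the core to which hypoxia-inducible factors bind. ACGTG, but not GCGTG, also lies inside the E-box CACGTG read by MYC and USF proteins. The HK2 promoter is at chr2:74833877-74834176, that of LDHA at chr11:18394313-18394612, both on the plus strand, and that of ENO1 at chr1:8878637-8878936 on the minus strand.
HK2: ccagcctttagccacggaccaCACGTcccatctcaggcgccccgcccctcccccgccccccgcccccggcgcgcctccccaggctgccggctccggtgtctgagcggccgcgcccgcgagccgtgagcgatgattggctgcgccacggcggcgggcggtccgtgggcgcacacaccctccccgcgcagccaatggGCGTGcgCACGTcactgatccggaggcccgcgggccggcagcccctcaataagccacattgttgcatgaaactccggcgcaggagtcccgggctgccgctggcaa
LDHA: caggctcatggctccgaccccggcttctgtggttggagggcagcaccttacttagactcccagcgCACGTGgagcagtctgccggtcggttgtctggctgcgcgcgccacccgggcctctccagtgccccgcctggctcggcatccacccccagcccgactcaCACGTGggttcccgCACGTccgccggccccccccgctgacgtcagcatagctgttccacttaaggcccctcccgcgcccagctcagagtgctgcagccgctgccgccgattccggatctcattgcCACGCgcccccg
ENO1: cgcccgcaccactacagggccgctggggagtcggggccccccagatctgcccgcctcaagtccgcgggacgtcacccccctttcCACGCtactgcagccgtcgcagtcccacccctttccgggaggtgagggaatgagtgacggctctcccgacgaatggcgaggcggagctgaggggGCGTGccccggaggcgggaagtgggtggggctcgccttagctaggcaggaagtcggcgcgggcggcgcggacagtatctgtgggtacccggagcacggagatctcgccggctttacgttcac

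Over these windows, ACGTG was present for GAPDH, LDHA, ALDOA, PGK1 and HK2, 5 of 10 members, against 21.6% of 27305 RefSeq windows of the same length, also the first listed for each gene. GCGTG was present in 5 of 10 (ENO1, PKM, LDHA, PGK1 and HK2) against 36.3%. LDHA had 5 matches to ACGTG on the 2 strands together, where each CACGTG counts once per strand, and HK2 had 2. CACGTG itself was found for GAPDH and LDHA, against 7.43% of all windows. GGGCGG, the GC box bound by SP1, was found in 8 of 10 members against 44.6%, and TATAAA in none of 10 against 11.95%. Among the 6 windows at MANE Select starts, ACGTG was in 3, GCGTG in 5, CACGTG in 1, GGGCGG in 5 and TATAAA in none. ACGTG was thus found in HK2 and LDHA as well as in PGK1, which gained share. A match is a description of these letters in this window.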

How the data were processed

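Gene values of 12 libraries were taken from the deposited table. The authors quantified reads with kallisto 0.46.1 (GRCh38 cDNA with ERCC sequences), summed them to protein-coding genes with tximport, and divided by DESeq2 size factors set on the 92 ERCC spike-ins. The deposited values are thus a normalized signal rather than counts, and 23.9% to 36.1% of low values were whole multiples of 1 read (within 0.01), so no count model was used. Signals were tested as log2(value + 1) with limma 3.58.1 (R 4.3.3, trended variance, 6 group means, all 12 libraries), two-sided, and p-values were adjusted by Benjamini-Hochberg across the 13811 genes with an untreated mean of at least 10, and called at 0.05. Fold changes on the log2(value + 1) scale understate the changes of low genes. The share scale divides each library by its summed gene signal, per 1000000. GENCODE release 44 named 19584 of the 22379 gene identifiers. Tables and figures used Python 3.11.15, pandas 2.3.3 and matplotlib 3.10.9, and limma was tested on simulated data.

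The members and lists were chosen with earlier results of these data known. Besides the 10 members, the text names the genes with the highest and lowest NONT response of each list (untreated mean of at least 100), the 5 nearest share profiles, NUP93 and EXOSC5. No separate culture is stated for the replicates of this RNA-seq experiment, so p-values measure the spread between these libraries, which may be technical. Same-numbered replicates did not deviate together (correlations of -0.0513 to 0.0368). Alternatives were another pseudocount, other filters, no variance trend, a replicate block, other scales and each library left out.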

Additional observations from a re-analysis of the deposited data

Results flagged for a closer look

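DLAT is the acetyltransferase of pyruvate dehydrogenase. On the spike-in scale its log2 response to triptolide was 1.41 higher in NUP93-KO than in NONT cells (SE 0.317, limma adjusted p = 0.0497). Over all genes the median of this difference was 0.74, and 0.76% were called higher. DLAT stood at percentile 90.4. As shares, neither DLAT nor any other of the 20 genes of its list was called for this difference. DLAT measured 801 and 1002 in untreated and 251 and 309 in treated NONT libraries. In NUP93-KO libraries it measured 582 and 645 untreated and 507 and 507 treated, so both treated NONT values lay below every NUP93-KO value. The difference passed in 4 of 15 alternatives, with values from 0.66 to 1.57 and adjusted p from 0.00369 to 0.851.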

How the results depend on the processing

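Median-of-ratios scaling turned the spike-in counts to 1 member lower and 9 higher (NONT), 0 lower and 9 higher (NUP93-KO) and 1 lower and 7 higher (EXOSC5-KO), and gave 4 lower in untreated EXOSC5-KO against NONT cells. The mitochondrial scale gave 10 lower in NUP93-KO and EXOSC5-KO cells, where the medians over all genes were -1.22 and -1.17. It gave 2 lower in untreated EXOSC5-KO cells. With an untreated mean of at least 1000, which leaves HK2 untested, 1 member was lower in NUP93-KO cells and 8 were higher in the NUP93-KO difference in response (2 with a mean of at least 50). On the share scale that filter left 0 (NONT), 1 (NUP93-KO) and 1 (EXOSC5-KO) lower, and 4 lower in untreated EXOSC5-KO cells. Without the variance trend, shares had 1 lower in NUP93-KO, 1 in EXOSC5-KO, and 0 lower and 0 higher in untreated EXOSC5-KO cells. With no filter those last counts were 1 lower and 0 higher, and with a pseudocount of 10, 2 were higher.

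Leaving out each library changed calls on the spike-in scale in NUP93-KO cells (without its untreated replicate 2) and in both differences in response. On the share scale it gave 1 to 2 lower in NONT (2 without treated replicate 2), NUP93-KO and EXOSC5-KO cells, and in untreated EXOSC5-KO against NONT cells 0 to 2 lower and 0 to 1 higher. PFKP, which passed nowhere on that scale, ranged from -0.0072 (without untreated replicate 2) to 0.34 (without untreated replicate 1) in NUP93-KO cells. In EXOSC5-KO cells it ranged from -0.17 to 0.133 (without untreated replicates 1 and 2), with 0.014 without treated replicate 1, and 0.00025 when members and mitochondrial mRNAs were kept out of the total. The causes were not tested. The replicate block changed no call, with 10 (NONT), 2 (NUP93-KO) and 3 (EXOSC5-KO) members lower on the spike-in scale. With 2 replicates a group, the smallest member change called on that scale was -0.73 (LDHA in NUP93-KO cells), and with the filter at 1000 ENO1 in EXOSC5-KO cells also passed at -0.43 (limma adjusted p = 0.0434).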
